A study of Tachysurus vachellii with 12 samples.

Results

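Liver small RNA was compared in a bagrid catfish, Tachysurus vachellii (Pelteobagrus vachelli in the series title), between juveniles kept at the normal 6.8 mg/L of oxygen (control) and juveniles held for 4 h at 0.7 mg/L (hypoxia). The sequences described are all those that carry the name of a known miRNA in the deposited small RNA table, each mature sequence taken once under its most abundant entry. There were 460 of them among the 545 distinct sequences of the table (613 entries), and the other 85 were predicted sequences with no known name. Per the labels the control fish were taken from 3 aquaria before the oxygen supply was closed, and the hypoxia fish came from the same aquaria after nitrogen had driven out the oxygen. Each library was made from a pool of 5 livers, with 3 pools in each group lettered a, b and c, and the labels call the pools biological replicates. No genotype, strain or other agent apart from the anaesthetic given to all fish before dissection is named, and time in the aquarium and hypoxia cannot be told apart because no fish were sampled at 4 h in normal oxygen.

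A miRNA is a short RNA that guides an Argonaute protein to messenger RNAs, mostly by pairing of its seed, bases 2 to 8, and so lowers their translation and stability. It is cut from a hairpin whose arms yield the 5p and the 3p sequence, of which usually one is kept, and trimming or tailing makes end variants of it. In vertebrate liver miR-122 is the main miRNA of hepatocytes, and in mammals miR-210 is the best known target of the hypoxia-inducible factor HIF among miRNAs.

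The sequences that the results below turn on are printed as the table gives them, 5′ to 3′ with T for U and with the seed in capitals. The prefix of a name is the species of the matching database entry (ola for medaka, dre for zebrafish, ssa for Atlantic salmon, ccr for carp, ipu for channel catfish, aca for a lizard, bbe for an amphioxus). A following L or R was read as how many bases the sequence is longer or shorter than that entry at its 5′ or 3′ end. Substitutions were read from ss. These readings follow the usual convention for such names, and no label explains the marks. Both arms of miR-210 come first because 1 of them is the only sequence that passed the test:
ola-miR-210-5p_R+2_1ss20TC: aGCCACTGactaacgcacactg
ola-miR-210-3p_L-1R+3: cTGTGCGTgtgacagcggct
The next sequences stand in groups of a shared seed, AAAGTGC in the first 3, GTGCAAA in the next 2, AGTGCAA in the 4 after them and ACCCGTA in the last 2, to show which miRNAs could pair with the same sites:
ccr-miR-17-5p: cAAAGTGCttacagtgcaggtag
ssa-miR-20a-5p: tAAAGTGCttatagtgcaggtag
dre-miR-93_R+1: aAAAGTGCtgtttgtgcaggtag
dre-miR-19b-3p_R-1: tGTGCAAAtccatgcaaaactg
aca-miR-19a-3p_R+1: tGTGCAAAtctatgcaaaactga
ccr-miR-130c_R-1: cAGTGCAAtattaaaagggca
ssa-miR-130a-2-3p_R-1: cAGTGCAAtaatgaaagggcat
dre-miR-301c-3p_R+1: cAGTGCAAtagtattgtcatagc
aca-miR-454-3p: tAGTGCAAtattgcttatagggt
bbe-miR-100-5p: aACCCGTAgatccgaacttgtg
ssa-miR-99-5p: aACCCGTAgatccgatcttgtg

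The 6 libraries held 4510770 to 7049919 counts, at which 3 counts correspond to 0.423 to 0.741 counts per 1000000 (CPM, on library sizes scaled by TMM), a limit that covers counting error only. The pools of letter c stood apart on the first principal component (-9.15 in control c and -5.29 in hypoxia c against -0.0986 to 7.81 in the other 4 pools, 47.6% of the variance), and control a stood apart on the second (9.38). Both letter c pools lay above all of the other 4 in 39 of the 215 known sequences tested and below all of them in 13. TMM factors ran from 0.854 to 1.4, and scaling by raw library totals in place of TMM moved the median log2 fold change of all tested sequences by -0.21. On raw library totals 147 of the 215 known sequences lay below 0, against 106 with TMM. Whether the CPM of the groups overlap was read on TMM-scaled values throughout and was not counted on raw library totals, where it can differ. Because each library is a bulk sample of liver, fewer cells of a type and less RNA per cell cannot be told apart.

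The miRNA make-up matched the labelled tissue. miR-122-5p, the hepatocyte miRNA, stood at 304483, 523661 and 625769 CPM in the control pools a, b and c and at 589327, 460138 and 517794 CPM in the hypoxia pools, in the same order of letters as in all such lists below. It took 42.7 to 54.3% of all raw counts, and the groups overlapped, with the lowest value in control a (log2 fold change 0.11, or -0.04 on raw library totals, adjusted p = 0.88). The 12 most abundant sequences, all of known name, took 81.6 to 89.3% of the counts, in overlapping ranges (exact permutation test, two-sided, p = 0.6, where 3 against 3 pools cannot go below 0.1). Predicted sequences took 0.0453 to 0.0574%. Below miR-122 the order was headed by miR-100-5p and miR-199a-5p. Next came let-7a-5p, a regulator of developmental timing in worms, miR-26a-5p, miR-21 and miR-146a, which NF-kappa B induces in mammals. The last of the 12 were miR-199a-3p, the endothelial miR-126-3p, miR-30a-5p, miR-22a-3p and miR-125a.

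**Figure D1:**
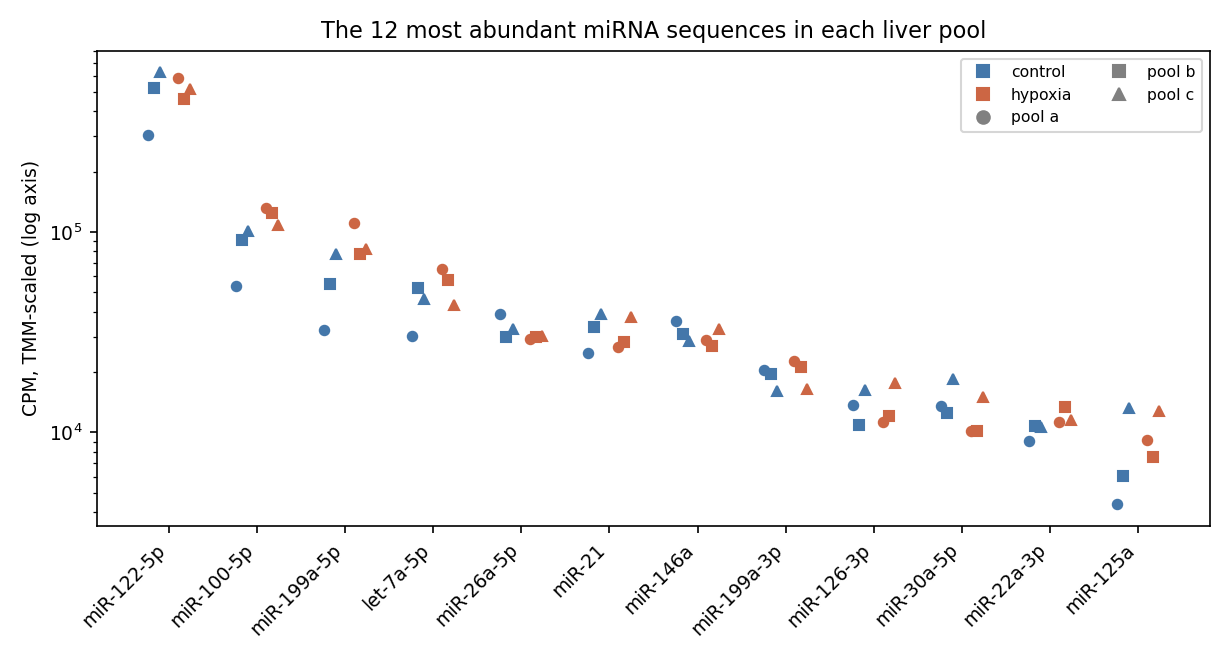
CPM on a log axis of the 12 most abundant miRNA sequences, ordered by mean, with 1 point per pool (control in blue, hypoxia in orange, shape for the pool letter). miR-122-5p stands above all others in every pool, and control a holds the lowest value of miR-122-5p, miR-100-5p, miR-199a-5p and let-7a-5p.

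Of the 215 known sequences with enough counts to test, 1 rose, which is 0.465% of them (0.42% of all 238 sequences tested), and none fell, 0.0%, by edgeR's quasi-likelihood test at a Benjamini-Hochberg adjusted p under 0.05. DESeq2 and limma-voom called the same sequence and no other. With the pool letter as a replicate block 3 passed (1.4%), miR-210-5p and, on the lower side, miR-19b-3p and miR-19a-3p. Without adjustment 21 had a p under 0.05 (9.77%), 10 of them higher (4.65%) and 11 lower (5.12%). In 44 of the 215 (20.5%) the hypoxia and control pools did not overlap, 24 higher (11.2%) and 20 lower (9.3%). The log2 fold changes ran from -1.41 to 2.27 with quartiles at -0.38 and 0.3 and a median of 0.01. The other 245 known sequences were too low to test, with a mean of at most 14.5 raw counts, and they include the 56 listed at 0 in all control pools and the 44 listed at 0 in all hypoxia pools.

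**Figure D2:**
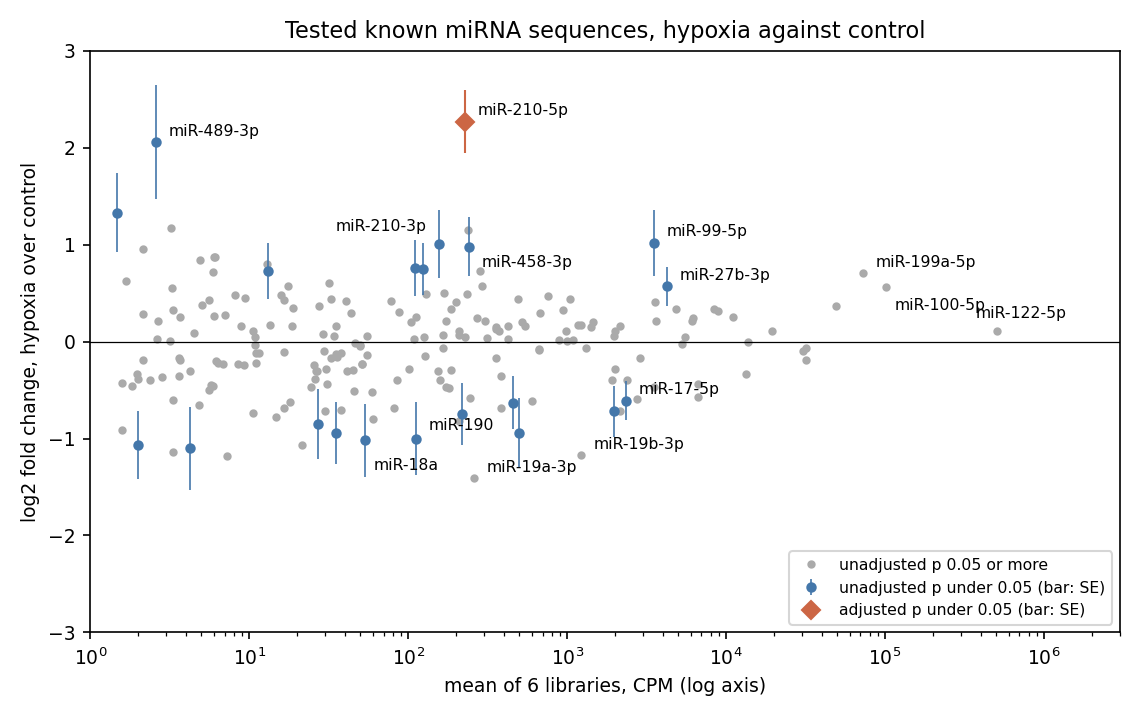
Log2 fold change (hypoxia over control) against mean CPM on a log axis for the 215 known sequences tested, with the standard error drawn for those with an unadjusted p under 0.05. miR-210-5p alone is past the adjusted threshold, at 2.27, and miR-122-5p, at the far right, lies at 0.11.

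miR-210-5p, one arm of the hairpin that HIF induces in mammals, was the sequence that rose. It stood at 64.5, 69.1 and 101 CPM in control and at 440, 416 and 278 CPM in hypoxia. Every hypoxia pool was above every control pool, and the pools of letter c were nearest to each other. The mean went from 78.3 ± 20 to 378 ± 87.3 CPM (SD, n = 3), a 4.83-fold rise (log2 fold change 2.27, SE 0.32, adjusted p = 0.025). Left-out libraries ended the call in 4 of 6 cases, with adjusted p = 0.16 without control a, 0.2 without control b, 0.1 without hypoxia a and 0.18 without hypoxia b, against 0.041 without control c and 0.017 without hypoxia c. On raw library totals the log2 fold change was 2.09 and the adjusted p 0.053. Without both letter c pools they were 2.69 and 0.00011. That alternative was chosen after seeing the data and drops the pools nearest to each other, so it is no separate support. In the authors' deposited table the log2 fold change of the sequence is 2.28 and the p 0.031, and 7 sequences there have a smaller p.

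The other arm, miR-210-3p, the form usually studied in mammals, stood at 92.7, 106 and 114 CPM in control and at 254, 262 and 116 CPM in hypoxia. Hypoxia a and b were above all controls, while hypoxia c lay just above control c. It did not pass (log2 fold change 1.01, SE 0.35, adjusted p = 0.45). Without both letter c pools, again those nearest to each other, the log2 fold change was 1.38 with an adjusted p of 0.045. That alternative was chosen after seeing the data, and the adjusted p ranged from 0.045 to 0.98 in all settings tried. The share of 3p counts among both arms of miR-210 was 59, 60.5 and 53% in control a, b and c and 36.6, 38.7 and 29.4% in hypoxia a, b and c. In controls the 3p arm was the larger in every pool, and in hypoxia the 5p arm was. The log2 ratio of 3p to 5p differed by -1.35 (hypoxia minus control, SE 0.32, limma across 51 hairpins, adjusted p = 0.088), or by the same amount with an adjusted p of 0.0031 with the letter as a replicate block. Without control c the difference was -1.48 (adjusted p = 0.045), and leaving out any other library gave adjusted p values of 0.22 to 0.43.

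**Figure D3:**
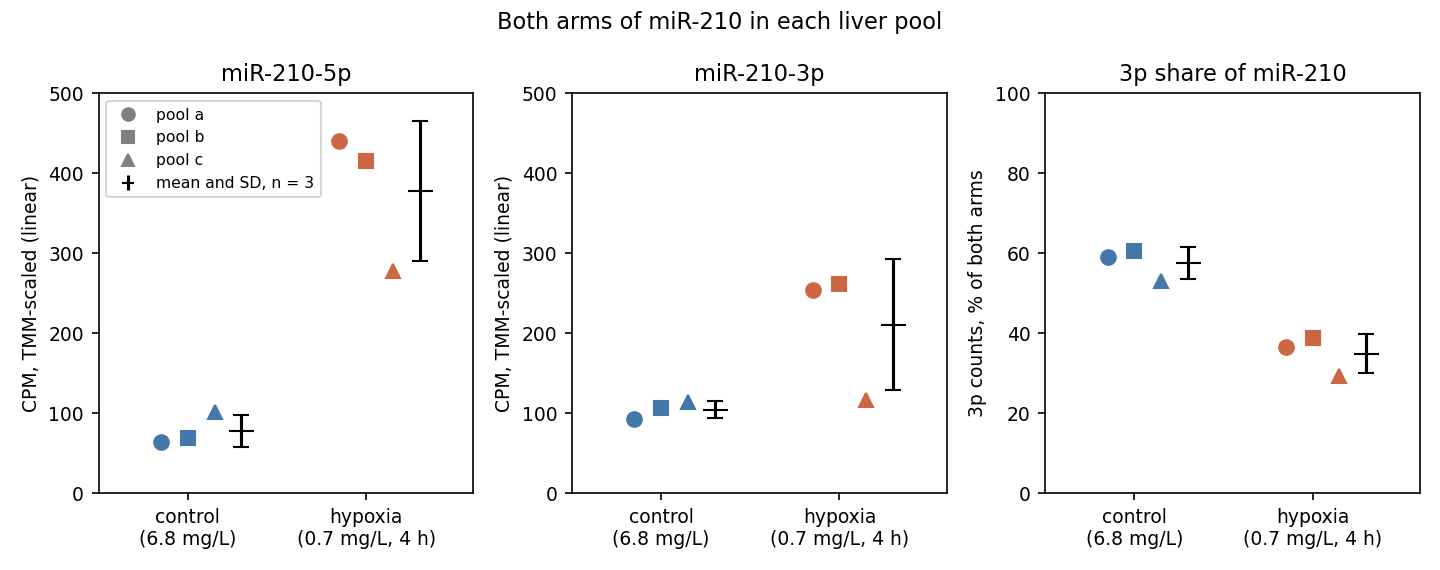
CPM of miR-210-5p and miR-210-3p on a linear axis and the share of 3p counts among both arms, 1 point per pool with the mean and SD of each group (n = 3). The 5p arm lies at 278 to 440 CPM in hypoxia against 64.5 to 101 in control, and the 3p share at 29.4 to 38.7% against 53 to 60.5%.

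For 12 miRNA numbers linked to hypoxia in mammals, 26 sequences were tested. Besides miR-210-5p none passed, 15 of the 26 lay above 0 and 11 below (11 and 15 on raw library totals), and the median was 0.13 against 0.01 for all known sequences tested. Of all 215 known sequences 109 lay above 0, or 68 on raw library totals. miR-27b-3p, from the cluster that also holds miR-23b and miR-24 in mammals, stood at 3041, 3660 and 3593 CPM in control and at 5587, 5337 and 4409 CPM in hypoxia. All hypoxia pools were above all controls on the TMM scaling (log2 fold change 0.57, SE 0.2, adjusted p = 0.45, or 0.37 on raw library totals). miR-23b and miR-24 overlapped between the groups, at 0.16 each, as did miR-24b-5p at -0.17. The entries named miR-27a-3p and miR-27e, with 0.49 and 0.29, differ from miR-27b-3p only at the 3′ end and were counted as its end variants. Whether they come from separate genes was not tested. The opposite arm of miR-181a, miR-181a-3p, had 76.7, 112 and 86.2 CPM in control and 165, 168 and 130 in hypoxia, again without overlap (0.75, adjusted p = 0.45), whereas miR-181a-5p, which acts in lymphocyte development in mice, overlapped between the groups (0.21). miR-21, raised in many injured mammalian tissues, had a log2 fold change of -0.07, which was 0.01 with upper quartile scaling. miR-26a-5p, miR-103 and miR-155 overlapped between the groups, at -0.19, -0.07 and -0.11.

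Members of the miR-17-92 type clusters, which in mammals are transcribed together and promote proliferation, lay mostly lower in hypoxia without any passing the test. Of 16 sequences tested 12 lay below 0 (14 on raw library totals and 11 with upper quartile scaling), against 106 of all 215 (147 and 94). The median was -0.45. The 16 include opposite arms and an end variant, so they are not all separate miRNAs. The most abundant of them, miR-25, lay at 0.24 in overlapping ranges, with each hypoxia pool above the control of its letter. Summed over the list, CPM were 19114, 21025 and 24845 in control and 19450, 17928 and 19869 in hypoxia, which overlapped. In 4 of the 16 the groups did not overlap, all lower, against 20 of all 215 that were separated in this direction (9.3%). miR-17-5p, the member the first cluster is named for, stood at 3331, 2573 and 2658 CPM in control and at 1848, 1719 and 2037 CPM in hypoxia. The groups did not overlap, and the mean was 2854 ± 416 against 1868 ± 160 CPM (log2 fold change -0.61, SE 0.2, adjusted p = 0.45). miR-20a-5p, from the same cluster in mammals, had 2769, 1955 and 2600 CPM against 1389, 1158 and 1902. Every hypoxia pool was again below every control (-0.72, SE 0.26, adjusted p = 0.45). miR-93, which carries the same seed from another cluster in mammals, overlapped, with the highest value in control c (1987, 2233 and 3909 against 1881, 1769 and 2515 CPM, log2 fold change -0.4, adjusted p = 0.67). miR-18a, whose seed is AAGGTGC, had 110, 57.5 and 46.9 CPM in control and 29.6, 34.6 and 41.6 in hypoxia (-1.02, adjusted p = 0.45). In that case the highest control was control a, and control c lay near hypoxia c.

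The miR-19 sequences differed more between pool letters than between groups. miR-19b-3p, which lies in the same cluster as miR-17 in mammals, stood at 780, 821 and 3488 CPM in control and at 340, 335 and 1592 CPM in hypoxia. miR-19a-3p stood at 105, 112 and 910 CPM in control and at 45.3, 35.9 and 343 CPM in hypoxia. For both, each hypoxia pool was below the control pool of its own letter, and hypoxia c was above control a and control b. The fit without the letter gave log2 fold changes of -1.17 (SE 0.8, adjusted p = 0.66) and -1.41 (SE 1.11, adjusted p = 0.69). With the letter as a replicate block both passed (miR-19b-3p -1.21 and miR-19a-3p -1.42, adjusted p = 0.029 each), which makes 3 of the 215 known sequences (1.4%) with miR-210-5p. In the fit without the letter their size depended on single pools of letter c. For miR-19a-3p the log2 fold change ran from -3.19 without hypoxia c to 0.28, the opposite direction, without control c, and for miR-19b-3p from -2.32 to -0.18. Of the 16 cluster sequences 8 had every hypoxia pool below the control of its letter, miR-93 among them, against 45 of all 215 (20.9%). miR-92a did not, and had 4489, 6478 and 5212 CPM in control and 6493, 5195 and 5064 in hypoxia, in overlapping ranges (0.05, or -0.15 on raw library totals).

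The miR-130, miR-301 and miR-454 sequences share the seed AGTGCAA, and all 4 that were tested lay below 0 under each scaling, at -0.94 to -0.58 with TMM. Of all 215 known sequences 106 lay below 0 with TMM and 147 on raw library totals. miR-130c stood at 696, 535 and 428 CPM in control and at 385, 386 and 300 CPM in hypoxia (-0.63, adjusted p = 0.48). miR-130a-2-3p had 353, 296 and 233 against 196, 222 and 174 CPM (-0.58, adjusted p = 0.48), and miR-301c-3p had 51.9, 38.8 and 46.9 against 17.5, 22.3 and 32 CPM (-0.94, adjusted p = 0.45). In these 3 the groups did not overlap, against 20 of all 215 that were separated in this direction (9.3%). miR-454-3p overlapped through hypoxia c, with 463, 418 and 539 CPM in control and 174, 253 and 453 in hypoxia (-0.69, adjusted p = 0.49).

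**Figure D4:**
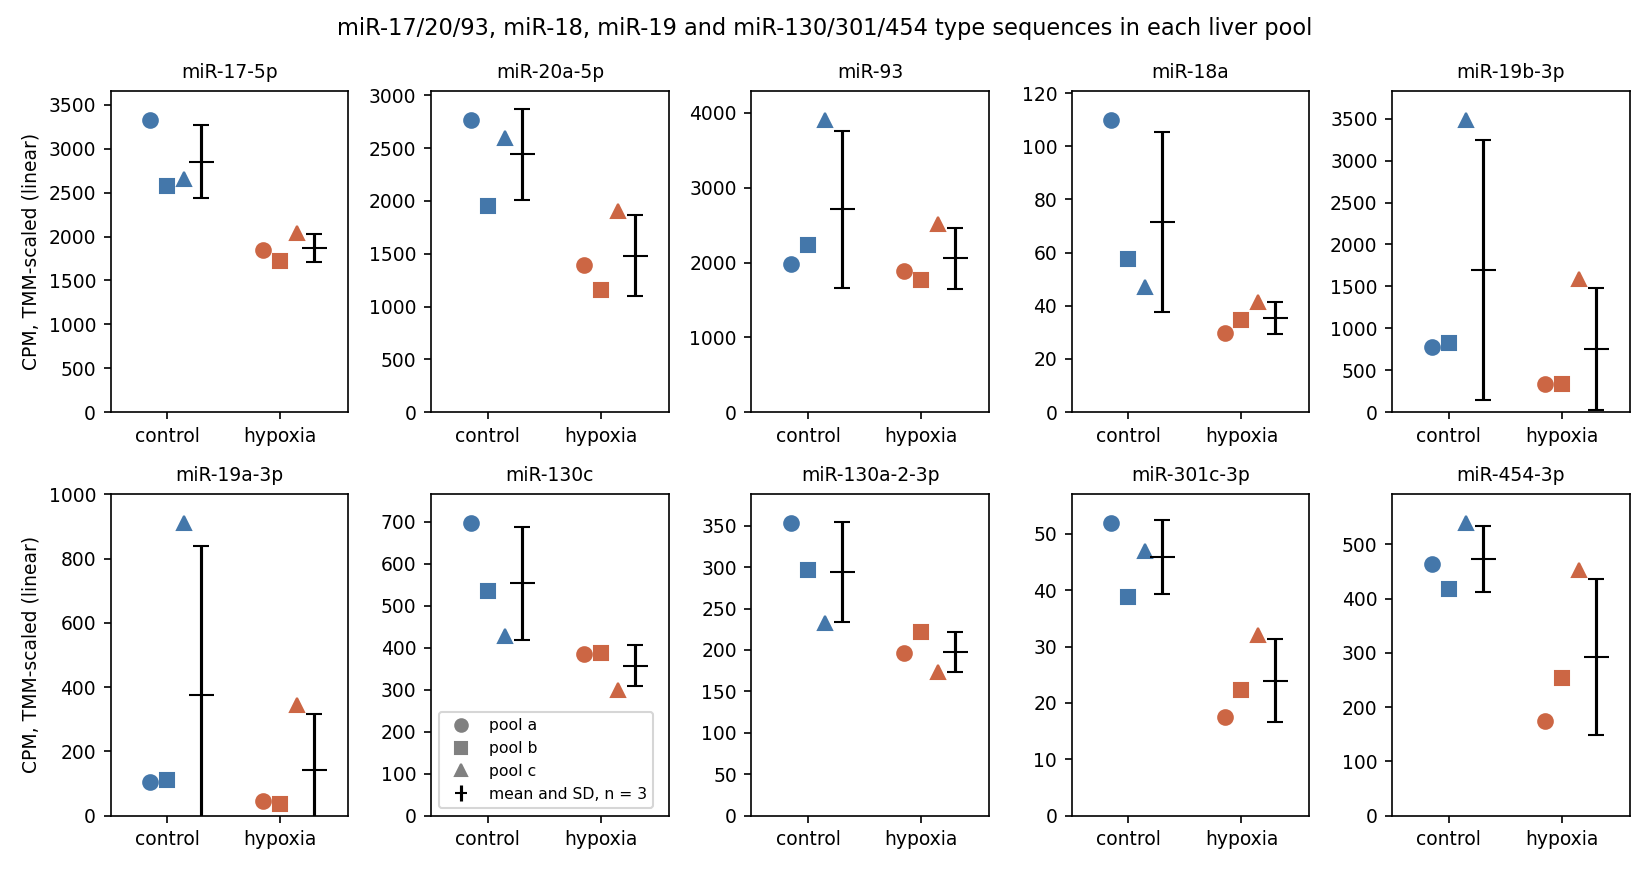
CPM on linear axes that start at 0 for the 10 sequences of the miR-17, miR-18, miR-19 and miR-130 seeds, 1 point per pool (shape for the letter) with the mean and SD of each group (n = 3); the bars of miR-19a-3p go below the axis. miR-17-5p and miR-20a-5p are separated between the groups, and miR-19a-3p and miR-19b-3p are highest in pool c of each group.

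Counts were also summed over the sequences that share a seed, and of 166 seeds tested 1 rose (0.602%), 18 had an unadjusted p under 0.05 (10.8%) and 33 did not overlap between the groups (19.9%). The seed that rose, GCCACTG, is carried by miR-210-5p alone, so it is the same measurement (log2 fold change 2.23, adjusted p = 0.02). With the letter as a replicate block no seed passed (0.0%, with 2.21 for this seed). Next came AGTGCAA, whose sum was 1400 ± 202 CPM in control and 851 ± 54.4 in hypoxia, without overlap (-0.72, SE 0.21, adjusted p = 0.35). The sum of AAAGTGC, the seed of miR-17, miR-20a and miR-93, was 8148 ± 729 CPM in control and 5275 ± 757 in hypoxia, also without overlap (-0.63, SE 0.2, adjusted p = 0.35). GACATCA, the seed of miR-489-3p, CAGTATT, that of miR-16a-3p, and GATATGT, that of miR-190, completed the 6 seeds with the smallest p, at 2.03, -1.14 and -1.08 (adjusted p = 0.35 each). The sums of GACATCA and CAGTATT were low, with means of 1.02 and 2.76 CPM in control and 4.24 and 1.25 in hypoxia.

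A list of miR-10 and miR-196, whose genes lie among the Hox genes, and of miR-99, miR-100 and miR-125, which lie elsewhere, was mixed. Of 9 tested none passed, 5 lay above 0 and 4 below, and the median was 0.32. miR-10c, miR-10b-5p and miR-10c-3p overlapped between the groups, at -0.08, -0.15 and -0.17, and miR-196 was too low to test. miR-99-5p, which with miR-100 acts on the growth kinase mTOR in mammals, stood at 1366, 2525 and 3050 CPM in control and at 5937, 4604 and 3518 CPM in hypoxia. The groups did not overlap, with a mean of 2314 ± 862 against 4686 ± 1211 CPM (log2 fold change 1.02, SE 0.34, adjusted p = 0.45). Without both letter c pools, the alternative chosen after seeing the data, the log2 fold change was 1.44 with an adjusted p of 0.045. miR-100-5p, of the same seed, had 53951, 90700 and 101461 CPM in control and 131336, 123778 and 108947 in hypoxia, also separated (0.56, SE 0.25, adjusted p = 0.48). The closest pools of the groups were those of letter c in both sequences. miR-125a, the vertebrate form of the worm miRNA lin-4, overlapped (4375, 6031 and 13297 against 9196, 7531 and 12837 CPM, log2 fold change 0.32), with pool c highest in each group. None of 9 let-7 sequences passed, with 6 above 0, a median of 0.2 and let-7a-5p at 30429, 52293 and 46113 against 65165, 57828 and 43089 CPM.

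Among the remaining sequences named by size of change, miR-458-3p, a fish and bird miRNA, stood at 163, 159 and 161 CPM in control and at 443, 279 and 234 CPM in hypoxia. On this TMM scaling the controls lay close together and all hypoxia pools above them (log2 fold change 0.98, SE 0.3, adjusted p = 0.45). On raw library totals the log2 fold change was 0.74. miR-190, which lies in an intron of a talin gene in mammals, had 196, 113 and 138 CPM in control and 50.9, 63 and 109 in hypoxia, without overlap (-1, SE 0.38, adjusted p = 0.45). Without both letter c pools, the alternative chosen after seeing the data, the log2 fold change was -1.42 with an adjusted p of 0.045. miR-489-3p was near the limit of detection, with 0.791, 0.987 and 1.23 CPM in control against 7.73, 2.42 and 2.44 in hypoxia (2.06, adjusted p = 0.45). miR-737-3p overlapped, at 8.23, 4.09 and 17.8 CPM in control and 4.03, 2.57 and 6.5 in hypoxia (-1.18, adjusted p = 0.48). miR-9-5p had 10.9, 4.23 and 13.3 CPM against 2.02, 6.05 and 41.3, so its log2 fold change of 0.8 rests on hypoxia c and was -0.87 without both letter c pools.

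Lists of growth, metabolic and fish miRNAs held no sequence that passed. For the list of miR-15, miR-16, miR-29 and miR-34, which in mammals restrain the cell cycle or act with p53, 7 of 10 lay below 0, against 106 of all 215, with a median of -0.21. miR-29a, a regulator of collagen genes in mammals, had 396, 198 and 222 CPM in control and 153, 182 and 148 in hypoxia, and miR-29b-3p had 127, 69.4 and 107 against 56.9, 61.8 and 68.9. Both were separated, with control a highest and control b closest to hypoxia (-0.75 and -0.69, adjusted p = 0.48 each). The insulin and metabolism list gave 8 of 17 above 0 and a median of -0.04. In the teleost list 5 of 10 lay above 0 with a median of -0.04. On raw library totals all 10 lay below 0, as did 147 of all 215. The fish-specific pair miR-462 and miR-731 overlapped, with 1236, 2007 and 2536 against 1652, 1972 and 2407 CPM for miR-462 (0.06, or -0.07 on raw library totals) and 279, 334 and 687 against 227, 294 and 495 CPM for miR-731 (-0.36). The list of miR-130, miR-181, miR-301 and miR-454 numbers, with both arms of each, gave 8 of 12 above 0 and a median of 0.11 (5 of 12 and -0.14 on raw library totals).

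Markers of cell types that liver tissue can hold were read as summed CPM over all sequences of each list. The erythroid numbers miR-451 and miR-144 summed to 13567, 6316 and 5268 CPM in control and 3714, 6957 and 7981 in hypoxia. They were highest in control a and lowest in hypoxia a, and in letters b and c the hypoxia sum was above control. All 7 sequences tested lay below 0 under each scaling with a median of -0.44 and none past the test. Of all 215 known sequences 106 lay below 0 with TMM and 147 on raw library totals. The 7 are arms and end variants of the 2 numbers, not separate miRNAs, and 1 of the 7 was below control in every letter, against 45 of all 215 (20.9%). Leaving out 1 library took miR-451 as far as 0.08 and miR-144 as far as 0.37. miR-451, which Argonaute itself cuts in zebrafish and mice, had 12517, 5730 and 4856 against 3379, 6365 and 7321 CPM (-0.44, adjusted p = 0.75). Leukocyte numbers summed to 30696 to 37798 CPM in control and 29190 to 34701 in hypoxia, of which miR-146, a number not limited to leukocytes, made 94.7 to 96.5%. Without it the sums were 1339 to 1634 and 1226 to 1428 CPM, with miR-223, a myeloid marker, at 202, 168 and 232 against 70.7, 179 and 185 CPM (-0.47) and miR-142a-5p at 263, 145 and 133 against 92.2, 148 and 169 (-0.4). miR-150, miR-155 and miR-146b lay at 0.01, -0.11 and 0.2, in overlapping ranges. Of the 9 leukocyte sequences tested none passed, 2 lay above 0 and 7 below, and the median was -0.12. The endothelial miR-126 arms summed to 11449 to 16923 and 11713 to 18072 CPM.

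Smooth muscle and stroma numbers summed to 58936, 81252 and 102989 CPM in control and 140881, 106693 and 107958 in hypoxia, which did not overlap. None of these 10 sequences passed, and 7 lay above 0 (3 on raw library totals), with a median of 0.09. Most of the sum was miR-199a-5p, a miRNA of fibroblasts and stellate cells in mammals, at 32267, 55269 and 77424 CPM in control and 110342, 77605 and 82553 in hypoxia (0.71, SE 0.32, adjusted p = 0.48), with control c just below hypoxia b. All miR-199 sequences made 90.8 to 94.9% of the sum. Without them it was 5438, 5922 and 8616 CPM in control and 7179, 7347 and 7986 in hypoxia, which overlapped, with control c highest. miR-143, a smooth muscle miRNA, had 3288, 2980 and 2974 against 4302, 4211 and 3780 CPM (0.41, SE 0.18, adjusted p = 0.48). Its change was separated but small on the TMM scaling, and was 0.18 on raw library totals. miR-145-5p, its cluster partner, was highest in control c (793, 1475 and 4234 against 1170, 1283 and 2462 CPM, -0.4, or 0.1 without both letter c pools). The part of these cells in the values of miR-99, miR-100 and miR-210 was not tested.

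Pancreas numbers summed to 865, 428 and 219 CPM in control and 1409, 729 and 492 in hypoxia, which overlapped, with pool a highest and pool c lowest in each group and each hypoxia pool above the control of its letter. Of the 6 sequences tested none passed and 5 lay above 0, against 109 of all 215, with a median of 0.74. The only one below 0 was miR-7b, at -0.23. miR-216b, an acinar miRNA, had 298, 116 and 26.4 against 591, 268 and 120 CPM (1.15, SE 0.85, adjusted p = 0.66), and miR-217, its neighbour in vertebrate genomes, 444, 161 and 33.1 against 598, 282 and 175. miR-375, an islet and gut endocrine miRNA, differed in pattern, at 71.8, 92.2 and 83 CPM in control and 179, 134 and 106 in hypoxia without overlap (0.76, SE 0.29, adjusted p = 0.45). Skeletal and heart muscle numbers summed to 74.1 to 219 and 87.1 to 115 CPM, with miR-1a-3p at 97.7, 27.5 and 83.3 against 36.6, 39.6 and 69 and miR-133a at 59.7, 17.9 and 29.1 against 25.1, 31 and 22.4. Epithelial numbers summed to 1738 to 2687 and 2112 to 3014 CPM, mostly miR-200a (1516, 968 and 1523 against 1641, 1153 and 1656), and neural ones to 3703 to 5139 and 4176 to 6253 CPM, of which miR-128 made 97.6 to 99.1%. miR-124b, from a neuronal family, stood at 38.1, 37.5 and 28.4 against 56.2, 41.4 and 42.1. Hepatocyte numbers summed to 327831 to 639855 and 474108 to 603804 CPM, of which miR-122 made 93.3 to 98%. Without it the sums were 22096, 12782 and 12976 CPM in control and 13840, 13361 and 14707 in hypoxia, which overlapped. Of the 9 sequences tested none passed, and 4 lay above 0 and 5 below. miR-192 (7536, 4576 and 4900 against 6208, 6475 and 7019 CPM, 0.21, or -0.07 on raw library totals) and miR-194-5p (2713, 2154 and 1727 against 2122, 1765 and 1558, -0.28) overlapped. So did miR-148, at -0.57, which lay below control in every letter.

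Without both letter c pools, an alternative chosen after seeing the data, 11 sequences passed (4.53%), 5 higher and 6 lower. These were miR-210-5p, miR-210-3p, miR-99-5p, miR-489-3p and a predicted sequence among the higher, and miR-19a-3p, miR-19b-3p, miR-190, miR-203a, miR-142a-3p and miR-725-3p among the lower. miR-203a, a skin miRNA in mammals, had 157, 25.1 and 53.3 CPM in control and 16.1, 20.8 and 255 in hypoxia a, b and c, and miR-725-3p had 48.2, 7.47 and 16.5 against 6.05, 6.8 and 80.7. Both were highest in hypoxia c, so that over all 6 pools their log2 fold changes were 0.31 and 0.37, against -2.25 and -2.06 over the 4. miR-142a-3p, a leukocyte miRNA, had 88.4, 44.1 and 96.1 against 13.9, 30.7 and 86.9 CPM (-0.8 over all 6 pools and -1.56 over the 4).

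Arm balance could be followed in 51 hairpins, paired by the fold of the sequences on each other. No genome was used, so a pair need not hold the main sequence of each arm. miR-199a-5p was paired with the scarcer miR-199b-3p, while the abundant miR-199a-3p stayed unpaired. That pair counts below among those with a lesser arm under 10% and among those with a lower 3p share in hypoxia. The 5p arm was the larger in every pool in 25 of them and the 3p arm in 23, and in 35 the lesser arm stayed under 10% in every pool. The exceptions were miR-210, miR-30e and miR-144, whose larger arm was not the same in all pools. No ratio passed in limma (0.0%), 3 had an unadjusted p under 0.05 (5.88%) and 13 did not overlap between the groups (25.5%), 6 with a lower and 7 with a higher 3p share in hypoxia. With the letter as a replicate block 2 passed (3.92%), miR-210 and miR-454.

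After miR-210 the smallest p values were those of miR-194a and miR-16a. The 3p share of miR-194a was 0.844, 1.32 and 1.38% in control and 2.27, 1.93 and 1.96% in hypoxia, all higher (log2 ratio difference 0.84, SE 0.29, adjusted p = 0.43). That of miR-16a was 0.108, 0.0838 and 0.0731% against 0.0546, 0.0399 and 0.0493%, all lower (-0.84, SE 0.37, adjusted p = 0.48). The miR-16a share rests on 1.18 to 3.16 CPM of miR-16a-3p. For miR-18a the 3p share was 10.7, 26.9 and 24.9% in control and 46.7, 37.1 and 29.7% in hypoxia (1.3, SE 0.58, adjusted p = 0.48). In each pool the 5p arm was the larger. It lay lower in hypoxia than in control, by the values given above, while the 3p arm stood at 13.1, 21.1 and 15.6 against 25.9, 20.4 and 17.5 CPM. The 3p share of miR-454 was 99.7, 99.6 and 99.9% against 99, 98.8 and 99.7% (-1.44, SE 0.65, adjusted p = 0.48, or 0.012 with the replicate block), a ratio that rests on 0.741 to 3.02 CPM of miR-454-5p. For miR-146b-3p, which by its fold was paired with the abundant miR-146a, the share was 0.184, 0.128 and 0.123% against 0.0861, 0.0954 and 0.107% (-0.57, SE 0.27, adjusted p = 0.48).

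**Figure D5:**
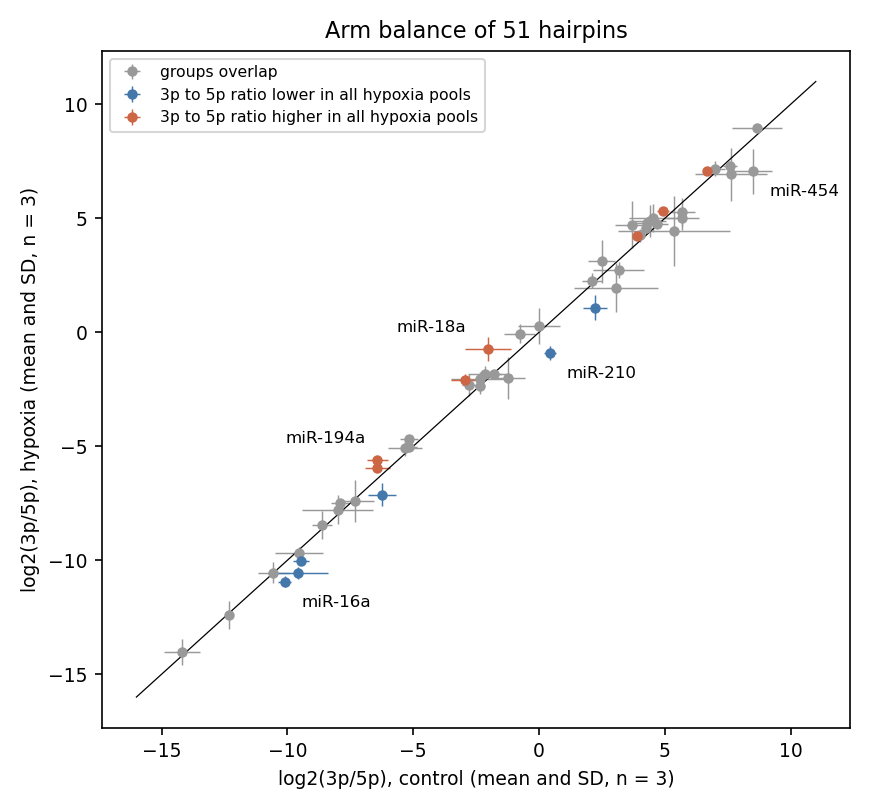
Mean log2 ratio of 3p to 5p counts in hypoxia against that in control for 51 hairpins, with SD bars (n = 3) and the line of equal ratios; colour marks hairpins whose pools do not overlap. miR-210 lies below the line, at -0.91 in hypoxia against 0.44 in control, near the point where both arms are equal.

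The 3p arm of miR-122 lay lower in hypoxia without passing. miR-122-2-3p stood at 1038, 435 and 498 CPM in control and at 313, 331 and 385 in hypoxia, which did not overlap (-0.94, SE 0.36, adjusted p = 0.45), with control a far above the rest. A longer form of it, named miR-122-3p, had 27.1, 17.6 and 42.2 against 8.73, 8.01 and 24.4 CPM (-1.07, adjusted p = 0.48). The 3p share of the hairpin was 0.34, 0.0831 and 0.0795% in control and 0.053, 0.0718 and 0.0742% in hypoxia.

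End variants of a more abundant sequence were followed in 17 cases, of which 15 stayed under 10% of the most abundant form in every pool. No ratio of variant to form passed in limma and none had an unadjusted p under 0.05 (0.0% each), 2 did not overlap (11.8%), and with the replicate block 2 passed (11.8%). These were a form of miR-122-5p that is 3 bases longer at its 3′ end and a form of miR-199a-5p that starts 3 bases earlier and so has another seed. They are printed with the added bases in capitals:
ipu-miR-122_R+3: tggagtgtgacaatggtgtttGTA
pma-miR-199a-5p_L+3: ATCcccagtgttcagactacctgttc
The longer miR-122 stood at 0.0613, 0.0701 and 0.0912% of miR-122-5p in control a, b and c and at 0.0536, 0.0585 and 0.0798% in hypoxia. Each hypoxia pool was below the control of its letter, by less on the log2 scale than letter c lay above letters a and b (log2 difference -0.22, SE 0.22, adjusted p = 0.98 in limma without the block and 0.00029 with it). The longer miR-199a-5p stood at 0.0387, 0.0503 and 0.0906% against 0.0254, 0.0317 and 0.0579% (-0.64, SE 0.43, adjusted p = 0.00029 with the block), in the same pattern. Both variants are scarce beside the most abundant forms, at 187 to 570 CPM and 12.5 to 70.1 CPM.

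The smallest p of the variants without the block belonged to a shorter miR-451, named pma-miR-451_R-4_1ss16TC, which was 0.072, 0.0861 and 0.0686% of miR-451 in control and 0.0696, 0.0404 and 0.0444% in hypoxia (log2 difference -0.58, SE 0.26, adjusted p = 0.98 in limma). The groups overlapped, and the ratio rests on 2.35 to 9.02 CPM of the variant. Another shorter form, dre-miR-451_R-3_1ss19AT, lay at 0.293 to 0.519% in overlapping ranges. The variants of miR-27b-3p named miR-27e were 1.37, 1.04 and 1.06% against 1.02, 0.951 and 0.817%, all lower (-0.31, SE 0.19), and those of miR-92a named miR-92c were 6.43, 6.42 and 5.9% against 6.8, 6.58 and 6.68%, all higher (0.1, SE 0.12).

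The 460 sequences were 18 to 26 bases long, 190 of them 22 bases, and 215 began with T, against 115 with A, 83 with C and 47 with G. In 135 the name states an exact match to its entry, in 229 an offset at the 3′ end and in 86 one at the 5′ end. Of known counts without miR-122, sequences of 22 bases took 52.6, 55.7 and 54.3% in control and 55.5, 57.6 and 53.6% in hypoxia, and sequences longer at the 3′ end than their entry 10.4, 8.09 and 8.97% against 6.66, 7.17 and 8.71% (exact permutation test, two-sided, p = 0.5 and 0.2, overlapping). In all, 11 known sequences end in CCA, the end that cells add to every mature tRNA. They took 0.267, 0.102 and 0.0781% of known counts in control and 0.157, 0.146 and 0.119% in hypoxia, and their source was not tested.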

How the data were processed

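The submitters' processing notes name Bowtie for small RNA, and other steps are not given in the sources used here. The table the authors deposited gives, for every mature sequence, an estimated count (an expected count with fractions, not scaled). Normalized signal by the authors stands beside it and is the estimated count times a factor of 0.8781 to 1.4156 that differs by library. The authors' log2 fold change and p-value close the deposited table. No column of per-sample values was left out, and 1 line of the table held no entry to use. Columns were assigned to pools by group code and letter.

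Entries were reduced to 1 per mature sequence, and sequences whose values were identical throughout were merged (471 left, all merged ones with a mean under 10 raw counts). Counts were rounded and tested in edgeR 4.0.16 (quasi-likelihood, TMM, filterByExpr, hypoxia against control, two-sided, Benjamini-Hochberg over all 238 sequences tested) in R 4.3.3. SE is the absolute log2 fold change over the square root of F. CPM use TMM-scaled library sizes, and sums over seeds were scaled on their own. Arm and end variant ratios were log2 of counts plus 0.5, for sequences with a mean of 10 raw counts or more, tested in limma 3.58.1. Hairpin arms were paired as mutually best partners in RNAduplex 2.7.2 at -15 kcal/mol or lower. An end variant shares its number, starts within 3 bases, overlaps by 16 or more and may differ only in the last 2 bases. DESeq2 1.42.0 served as an alternative, and figures were drawn in Python 3.11.15 with matplotlib 3.10.9.

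On simulated data for this comparison with 229 sequences tested, 17 of 19 sequences with a log2 change of 2 were called, 3 of 19 with a change of 1 and 1 of 191 without change. Whether the letters pair the pools was checked on deviations from the group means, across sequences, which are not independent replicates. Same letters gave correlations of 0.13, 0.5 and 0.56 for a, b and c, and different letters -0.6 to 0.42. By the rule used here, a correlation over 0.1 in every pair, the letters were taken to pair the pools. For letter a the values do not show a pairing, since control b with hypoxia a gave 0.42 against 0.13. The labels do not tie letters to aquaria, so the fit without the letter is given first and the block as an alternative.

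The sequences, lists and tests were chosen with earlier results of these data known. Named with values were the known sequences that passed, the 12 most abundant, the leading sequence of 21 listed numbers, the 6 highest and 6 lowest fold changes at a group mean of 10 CPM or more, and the 6 hairpins, 6 end variants and 6 seeds with the smallest p. A further 12 (miR-20a-5p, miR-93, miR-301c-3p, miR-130a-2-3p, miR-29a, miR-29b-3p, miR-181a-3p, miR-122-2-3p, miR-217, miR-203a, miR-725-3p and miR-142a-3p) and members given only as a fold change were chosen after their values were seen. The limit of 3 counts covers counting error only, and the sources used here name no molecular identifiers on the reads. SE come from fits over the libraries and SD from the 3 pools of a group, so both include differences between pools. Lists were described by counts and medians, with no set test.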

Additional observations from a re-analysis of the deposited data

How the results depend on the processing

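With 3 pools in each group only large changes could pass, and a p that misses the threshold does not show that levels were equal. Over the alternatives 1303 values of single sequences, seeds and ratios kept their direction and their side of the threshold, 10 lost a call, 17 gained one and 60 changed sign, all 60 of values that had not passed; the causes were not tested. The alternatives without both letter c pools and with the authors' normalized values in limma were chosen after seeing the data.

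The number of sequences called, 1 in the fit as reported, was 0 on raw library totals, 3 with the replicate block and 11 without both letter c pools, and among known miRNAs 0, 3 and 10. For seeds it was 2 with no filter and 0 with the replicate block, against 1. For arm ratios it was 1 with a mean of 100 raw counts or more, 2 with the replicate block and 2 without both letter c pools, against 0, and for end variants 2 with the replicate block, against 0. The block changed no other call. Leaving out 1 library gave 0 to 1 sequences, known miRNAs, seeds and arm ratios. Of the first 3, 0 were called when an a or b pool of either group was left out, and 1 arm ratio was called without control c.

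Changes of sign were as follows. On raw library totals the log2 fold change was -0.04 for miR-122-5p, -0.14 for miR-199a-3p, -0.07 for miR-192, -0.15 for miR-92a, -0.07 for miR-462, -0.10 for miR-200a, -0.06 for miR-92c, -0.07 for miR-203a and -0.01 for miR-725-3p. With upper quartile scaling it was 0.01 for miR-21 and 0.08 for miR-126-3p, whose value was 0.03 with no filter and 0.00 at a mean of 10 raw counts or more. Without both letter c pools it was 0.10 for miR-145-5p, 0.07 for miR-122_R+3, 0.37 for miR-199a-5p_L+3, -0.87 for miR-9-5p and, both past the threshold, -2.25 for miR-203a and -2.06 for miR-725-3p. In limma-voom it was 0.16 for miR-199a-5p_L+3, -0.05 for miR-9-5p, -0.43 for miR-203a and -0.28 for miR-725-3p, and on the authors' normalized values 0.13, -0.09, -0.44 and -0.28. The replicate block gave 0.12 for miR-199a-5p_L+3, -0.37 for miR-203a and -0.22 for miR-725-3p.

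Leaving out 1 library gave ranges of log2 fold change that crossed 0, of -0.14 to 0.26 for miR-122-5p, -0.24 to 0.01 for miR-21, -0.06 to 0.23 for miR-199a-3p, -0.23 to 0.08 for miR-126-3p, -0.75 to 0.08 for miR-451, -0.12 to 0.22 for miR-92a, -0.18 to 0.23 for miR-462, -0.81 to 0.44 for miR-145-5p, -0.03 to 0.28 for miR-200a and -0.73 to 0.06 for miR-731. The range was -0.04 to 0.34 for miR-92c, -0.49 to 0.18 for miR-122_R+3, -3.19 to 0.28 for miR-19a-3p, -0.96 to 0.37 for miR-144, -0.53 to 0.64 for miR-199a-5p_L+3, -0.78 to 0.17 for miR-133a, -0.04 to 0.36 for miR-181a-5p, -2.09 to 1.29 for miR-203a, -1.91 to 1.36 for miR-725-3p and -1.21 to 1.28 for miR-9-5p. The difference in share (hypoxia minus control, percentage points) ran from -4.9 to 0.9 for miR-122-5p, -0.283 to 3.42 for the 12 most abundant sequences, -2.42 to 0.575 for 21 bases, -1.17 to 1.5 for 23 bases and -0.0438 to 0.0506 for sequences ending in CCA.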
